A study of Homo sapiens with 9 samples.

Results

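Gene expression in LAPC4 cells was compared between 3 libraries labelled as a knockdown of UGT2B28 and the mean of the control and rescue groups of 3 libraries each, to describe the genes whose level differed under the knockdown label and lay elsewhere in both other groups. A gene was a member when its normalised read count (CPM, counts per 1000000, scaled by the trimmed mean of M values, TMM) in each of the 3 knockdown-labelled libraries lay above, or below, all 6 other libraries. Of 60325 gene rows in the count files, 16796 had enough counts to be tested, and 2318 of these (13.8%) were members. In 1237 of them (7.36% of the tested genes) the knockdown-labelled libraries lay above all 6 others, and in 1081 (6.44%) they lay below. The same contrast was tested gene by gene with edgeR's quasi-likelihood test, and 1502 of the 16796 genes (8.94%) had a Benjamini-Hochberg adjusted p under 0.05, 930 of them higher (5.54%) and 572 lower (3.41%) in the knockdown-labelled libraries. With library sizes not scaled, 1385 genes passed and the split turned to 197 higher and 1188 lower. Both criteria were met by 691 genes above (4.11% of the tested genes) and 516 below (3.07%). Since the rule and the test read the same counts, the share of members that passed is a description only.

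All libraries came from LAPC4, an androgen-responsive human prostate cancer cell line, grown in serum-supplemented IMDM and harvested at day 30. The control group has the genotype label control, the second group UGT2B28 knockdown with puromycin at 3 ug/mL as the selection antibiotic, and the last one UGT2B28 rescue with G418 at 1 mg/mL. No antibiotic is named for the control cells, so the selection drug and the label cannot be told apart. The labels do not say whether the 3 libraries of a group came from separate cultures or whether a group is 1 clone, so the p-values cover only library-to-library spread, which may be technical.

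UGT2B28 belongs to the UDP-glucuronosyltransferases, which attach glucuronic acid to steroids and so help to clear androgens from cells. Androgens act through the androgen receptor, a transcription factor that maintains the secretory programme of luminal prostate cells and drives growth of most prostate cancers. LTF encodes lactoferrin, an iron-binding defence protein of secretions, and CDH4 encodes R-cadherin, a calcium-dependent cell adhesion protein.

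UGT2B28 itself was at 5.12, 5.10 and 7.80 CPM in control libraries 1, 2 and 3, at 8.48, 6.18 and 3.05 CPM in knockdown-labelled libraries and at 75.1, 92.9 and 53.6 CPM in rescue libraries, in the order of library number used throughout. The rescue libraries were high, while the knockdown-labelled and control ranges overlapped. Its log2 difference between knockdown-labelled and control libraries was -0.04 (edgeR adjusted p = 0.957), so its mRNA was not lower in the knockdown-labelled cells. UGT2B28 was thus no member, although it passed in the contrast against both groups (log2 fold change -1.85, SE 0.304, edgeR adjusted p = 0.0124). The luminal gene KLK3, which encodes prostate-specific antigen, had a median of 1200 CPM over the libraries, and the summed level of the 11 luminal markers was 5170 to 6290 CPM in control, 4520 to 7200 CPM in knockdown-labelled and 6100 to 7140 CPM in rescue libraries.

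Libraries held 8132206 to 14185252 counts on genes. Knockdown-labelled library 3 stood apart from libraries 1 and 2 of its group, with a chi-square per degree of freedom of 62.0 and 66.4 over genes, against 3.46 between libraries 1 and 2 and 2.13 to 9.47 within the other groups. TMM factors were 0.793 and 0.80 in knockdown-labelled libraries 1 and 2, 1.11 in library 3 and 1.03 to 1.09 in the other 6. The share of mitochondrial transcripts was 15.1% and 15.8% in knockdown-labelled libraries 1 and 2, 10.2% in library 3 and 5.79% to 8.57% elsewhere. By the rule, each member had to lie outside the other groups' range in library 3 too. Relative to the gene's mean over the control and rescue libraries, the median member above lay 0.51, 0.55 and 0.37 higher on the log2 scale in knockdown-labelled libraries 1, 2 and 3, and the median member below had log2 values of -0.51, -0.56 and -0.49. Library 3 was the knockdown-labelled library nearest to the others for 744 members above (60.1%) and 514 members below (47.5%).

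The test depended on each library. Leaving out knockdown-labelled library 1 or 2 left 4 genes passed in each case, and leaving out library 3 raised the number to 6736. Without libraries 1 and 2 together, 3022 genes passed, and 542 of the original 1502 were among them. Without control library 1, 2 or 3, the number was 309, 312 or 564, and without rescue library 1, 2 or 3 it was 327, 492 or 521. Membership by the rule alone ranged from 2442 to 7480 genes when 1 library was left out, the highest value being without knockdown-labelled library 3.

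**Figure D1:**
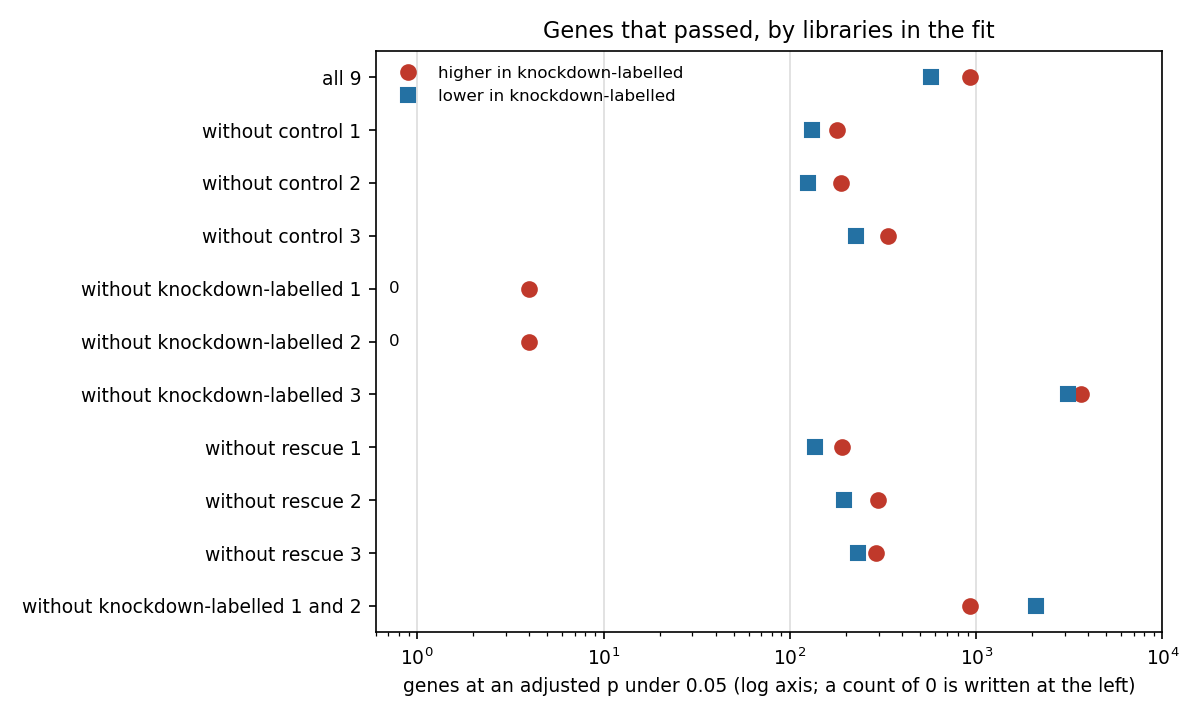
Number of genes at an adjusted p under 0.05 (log axis) in the contrast of knockdown-labelled libraries against the mean of control and rescue, with all 9 libraries and with libraries left out; red circles are genes higher and blue squares genes lower in the knockdown-labelled libraries. With all 9 libraries 930 were higher and 572 lower, and without knockdown-labelled library 1 or 2 only 4 and 0.

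LTF showed the largest rise among the protein-coding members that passed, leaving out genes whose higher mean was under 2 CPM. It was at 2.45, 1.02 and 3.49 CPM in control, 15.5, 16.2 and 13.6 CPM in knockdown-labelled and 1.71, 3.32 and 1.29 CPM in rescue libraries. The rule requires all 3 knockdown-labelled libraries to lie above the other 6, and here the margin was wide. The control and rescue ranges overlapped. The log2 fold change was 2.77 (SE 0.326, edgeR adjusted p = 0.0113), against a median of 0.0068 over all tested genes, and 7 of the 9 fits without 1 library also called it. Against control alone the log2 difference was 2.70 and LTF did not pass (edgeR adjusted p = 0.0602). In bulk RNA, more cells expressing a gene and more RNA per cell cannot be told apart. LTF lies on the minus strand at chr3:46435645-46485234 (GRCh38). The 250 bases before the listed start that is also the gene's start in GENCODE, at chr3:46485235-46485484 on the minus strand, are shown because LTF leads the rises; RefSeq (GRCh38.p14) lists 3 starts for it, and the counts do not tell which was used. Capitals mark the GC box GGGCGG, found here on the other strand as its complement.

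LTF: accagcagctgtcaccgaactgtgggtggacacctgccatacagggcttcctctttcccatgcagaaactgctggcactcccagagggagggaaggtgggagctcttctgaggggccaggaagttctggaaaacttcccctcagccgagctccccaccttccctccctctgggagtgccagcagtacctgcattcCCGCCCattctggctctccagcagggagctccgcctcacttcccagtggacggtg

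A list of secretory defence and mucosal genes, which holds LTF and also the transcription factor gene ELF5, had 19 tested members. Of these 3 rose and none fell, and 3 (15.8%) lay above all 6 other libraries against 7.36% of all genes. LTF and ELF5 were in both counts. ELF5, an epithelial transcription factor of secretory glands, was at 8.03, 8.57 and 7.80 CPM in control, 10.4, 10.4 and 14.8 CPM in knockdown-labelled and 5.40, 4.46 and 2.48 CPM in rescue libraries. It rose by 1.03 on the log2 scale (SE 0.231, edgeR adjusted p = 0.0256), and its rescue libraries lay below all control libraries. DEFB1, which encodes an antimicrobial defensin, also rose (log2 fold change 1.13, edgeR adjusted p = 0.0263), but at 7.27, 5.38 and 4.13 CPM its knockdown-labelled range overlapped the control range of 3.90 to 4.66 CPM. Its rescue libraries were low, at 1.25 to 1.89 CPM. The list's median log2 fold change was 0.28, and 0.022 without scaling of library sizes, where 1 member rose and 1 fell.

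**Figure D2:**
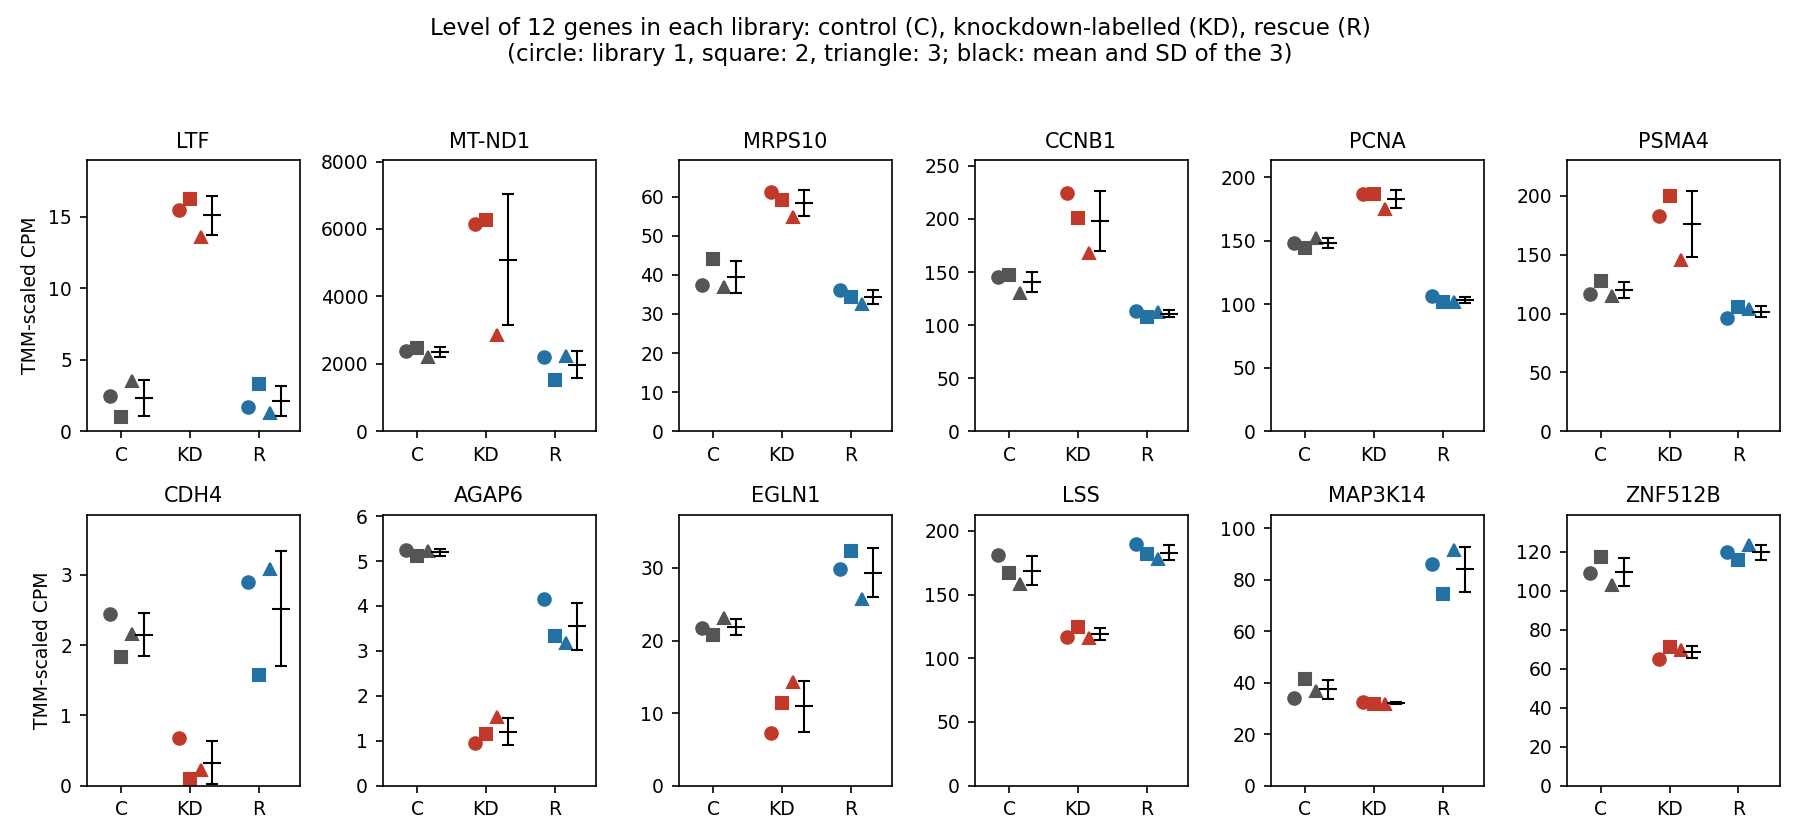
TMM-scaled CPM (linear axes from 0) of 12 genes in each control (C), knockdown-labelled (KD) and rescue (R) library, with circles, squares and triangles for libraries 1, 2 and 3 and black bars for the mean and SD of the 3. LTF was at 13.6 to 16.2 CPM under the knockdown label and at 1.02 to 3.49 CPM in the others, and in MT-ND1 the knockdown-labelled library 3 sat far below libraries 1 and 2.

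CDH4 showed the largest fall by the same rule. It was at 2.45, 1.84 and 2.15 CPM in control, 0.673, 0.0883 and 0.218 CPM in knockdown-labelled and 2.90, 1.57 and 3.08 CPM in rescue libraries. By the rule the 3 knockdown-labelled libraries lay below the other 6, and the control and rescue ranges overlapped. The log2 fold change was -2.92 (SE 0.563, edgeR adjusted p = 0.0167), and the call held in 5 of the 9 fits without 1 library. Against control alone the log2 difference was -2.80 and CDH4 did not pass (edgeR adjusted p = 0.0781). CDH4 lies at chr20:61252426-61940617 (GRCh38, plus strand). At these levels the gene rested on few reads.

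Of 32 tested cadherins and catenins, the proteins of adherens junctions and their relatives, none rose and 3 fell. Below all 6 other libraries lay 5 (15.6% against 6.44% of all genes), and 1 lay above (3.12% against 7.36%). The other 2 that fell were CELSR2 and CELSR3, large cadherins of the planar cell polarity system. CELSR2 was at 50.3, 49.7 and 44.3 CPM in control, 35.3, 26.3 and 40.4 CPM in knockdown-labelled and 54.5, 52.9 and 48.0 CPM in rescue libraries (log2 fold change -0.56, SE 0.137, edgeR adjusted p = 0.0327). CELSR3 was at 27.5, 28.3 and 31.5 CPM in control, 25.2, 26.4 and 17.6 CPM in knockdown-labelled and 35.7, 40.8 and 39.6 CPM in rescue libraries (log2 fold change -0.54, edgeR adjusted p = 0.0415). By the rule the knockdown-labelled libraries were the lowest in both genes, with a narrow margin in CELSR3. After a correction for GC content and length, chosen after seeing the data and described further on, CDH4 still passed (adjusted p = 0.0311 in edgeR), and CELSR2 and CELSR3 did not (0.485 and 0.729). The list's median log2 fold change was 0.0011, and -0.20 without scaling. Protocadherins, the larger neuronal branch of the family, had 53 tested members with none passed and 1 above all 6 others.

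The other large rises were in genes of varied roles. MIF, which encodes a secreted inflammatory cytokine, was at 20.5, 22.5 and 11.4 CPM in control, 43.9, 34.6 and 63.9 CPM in knockdown-labelled and 18.5, 17.9 and 18.5 CPM in rescue libraries (log2 fold change 1.38, SE 0.217, edgeR adjusted p = 0.0113). All 3 knockdown-labelled libraries lay above the rest, as the rule requires. An antisense gene covers 61.9% of the exon bases of MIF on the other strand, and whether counting used strand is not known, so its reads may be shared. MTRNR2L12, a nuclear copy of a mitochondrial rRNA segment, was at 27.5, 23.2 and 11.4 CPM in knockdown-labelled libraries and at most 8.35 CPM elsewhere (log2 fold change 1.57, edgeR adjusted p = 0.0126), and reads of the mitochondrial original may reach it. THAP10, a zinc finger protein gene, was at 3.77, 4.41 and 3.48 CPM in knockdown-labelled libraries, at 1.02 to 2.05 CPM in control and at 1.12 to 2.09 CPM in rescue libraries (log2 fold change 1.35, edgeR adjusted p = 0.029). SEBOX, a homeobox gene, DUSP19, a dual-specificity phosphatase gene, and HHLA3 rose by 1.58, 1.48 and 1.26 on the log2 scale, each from levels under 2 CPM in the control and rescue libraries. The remaining 5 of the 12 largest rises were mitochondrial mRNAs.

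The large falls after CDH4 were in genes at low levels. PDF, which encodes a mitochondrial enzyme that removes formyl groups from new proteins, was at 7.80, 3.98 and 7.28 CPM in control, 1.08, 2.12 and 2.29 CPM in knockdown-labelled and 5.07, 6.38 and 6.46 CPM in rescue libraries (log2 fold change -1.72, SE 0.327, edgeR adjusted p = 0.0164). ZGPAT, a zinc finger transcriptional repressor, was at 6.06, 6.23 and 7.08 CPM in control, 3.90, 1.94 and 2.29 CPM in knockdown-labelled and 7.58, 10.2 and 9.14 CPM in rescue libraries (log2 fold change -1.51, SE 0.263, edgeR adjusted p = 0.0128). AGAP6 was at 5.10 to 5.24 CPM in control, 0.942, 1.15 and 1.52 CPM in knockdown-labelled and 3.18 to 4.15 CPM in rescue libraries (log2 fold change -1.82, edgeR adjusted p = 0.0113). In all 3 genes the knockdown-labelled libraries were well below the others, and each was also called in 7 of the 9 fits without 1 library and after the GC and length correction. AGAP6 has near-identical copies, between which reads may have been split.

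ADAMTSL4, a gene for an extracellular matrix protein, differed in another way. It was at 3.03, 2.14 and 2.26 CPM in control, 0.942, 1.06 and 2.07 CPM in knockdown-labelled and 6.46, 7.78 and 5.76 CPM in rescue libraries (log2 fold change -1.57, SE 0.328, edgeR adjusted p = 0.0211). Knockdown-labelled library 3 lay just under the lowest control library, and every rescue library lay above all control libraries. LTB4R2, a leukotriene receptor gene, ran from 0.673 CPM in knockdown-labelled library 1 to 5.33 CPM in library 3, against a lowest value of 5.95 CPM elsewhere (log2 fold change -1.76, edgeR adjusted p = 0.0374). TMPRSS5, a membrane serine protease gene, was at 0.673, 1.24 and 0.762 CPM in knockdown-labelled libraries and at 1.94 to 3.16 CPM in the others (log2 fold change -1.47, edgeR adjusted p = 0.0301). TEX22, the STX16-NPEPL1 readthrough, GNAT2, TEKT4 and TUBA3D also fell, with log2 fold changes of -1.84, -1.86, -1.54, -1.49 and -1.43. GNAT2 and TEKT4 overlap exons on the other strand over 100% and 58.5% of their length and TUBA3D has near-identical copies, so their counts are uncertain.

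The mRNAs encoded by the mitochondrial genome had the largest median difference of the 39 lists. They encode core subunits of the respiratory chain and ATP synthase. Of 13, 12 rose and none fell, and the median log2 fold change was 1.17. Above all 6 other libraries lay 9 (69.2% against 7.36% of all genes). MT-ND1, a subunit of complex I, was at 2378, 2481 and 2206 CPM in control, 6156, 6270.5 and 2844 CPM in knockdown-labelled and 2202, 1511 and 2220.3 CPM in rescue libraries (log2 fold change 1.24, SE 0.237, edgeR adjusted p = 0.0164). MT-CO1, the catalytic subunit of complex IV, was at 20564, 21796 and 20682 CPM in control, 44086, 46725 and 31067 CPM in knockdown-labelled and 18248, 14919 and 19987 CPM in rescue libraries (log2 fold change 1.07, edgeR adjusted p = 0.0157). Both genes were clearly highest in knockdown-labelled libraries 1 and 2 and nearer to the others in library 3. MT-ND5, MT-ND4, MT-ND2, MT-ATP8 and MT-ATP6 rose by 1.13, 1.36, 1.27, 1.34 and 1.21. Relative to the mean of control and rescue, the list's median was 1.45, 1.5 and 0.41 on the log2 scale in knockdown-labelled libraries 1, 2 and 3. Its direction held without scaling (median 0.87) and after the GC and length correction (median 1.08, 11 passed).

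In the lists of nuclear respiratory chain subunits and of both kinds of ribosomal proteins, some members rose and none fell. Of 76 tested proteins of the mitochondrial ribosome, which translates those mRNAs, 25 rose, and the median log2 fold change was 0.50. Above all 6 other libraries lay 21 (27.6% against 7.36% of all genes). MRPS10 was at 37.4, 44.1 and 36.8 CPM in control, 61.1, 59.1 and 54.7 CPM in knockdown-labelled and 36.2, 34.4 and 32.5 CPM in rescue libraries (log2 fold change 0.66, SE 0.0997, edgeR adjusted p = 0.0113). MRPL3 was at 111 to 118 CPM in control, 143 to 154 CPM in knockdown-labelled and 99.0 to 102 CPM in rescue libraries (log2 fold change 0.47, edgeR adjusted p = 0.0142). In both genes library 3 stayed above the other groups, but the list as a whole did not: its median against the mean of control and rescue was 0.57, 0.61 and -0.015 on the log2 scale in knockdown-labelled libraries 1, 2 and 3. Without scaling 2 of the list passed, 8 lay above and 1 below, and its median log2 fold change was 0.20. After the GC and length correction 9 of the list passed and 15 lay above, and MRPS10 missed with an edgeR adjusted p of 0.0504.

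The same holds for the other 2 lists. Of 79 tested cytosolic ribosomal proteins 15 rose, and with TMM scaling 4 (5.06%) lay above all 6 others, against 7.36% of all genes. That comparison depended on the scaling. Without scaling 8 of the 79 lay above, against 431 of all 16796 genes. After the GC and length correction 7 lay above, against 865 of all genes. The list's median log2 value against the mean of control and rescue was 1.05, 0.98 and -0.26 in knockdown-labelled libraries 1, 2 and 3. RPS20, of the small subunit, was at 1635, 1552 and 704 CPM in knockdown-labelled libraries, 614 to 672 CPM in control and 509.5 to 618 CPM in rescue libraries (log2 fold change 1.12, edgeR adjusted p = 0.0172). RPS4X, also of the small subunit, rose by 0.78 (edgeR adjusted p = 0.0201). Of 77 nuclear respiratory chain subunits 14 rose and 3 (3.90%) lay above, with such medians of 0.95, 0.88 and -0.27 in libraries 1, 2 and 3. Without scaling 3 of the 77 lay above and 1 below, and after the GC and length correction 7 lay above and 1 below. ATP5F1C, the gamma subunit of ATP synthase, was at 245, 249 and 139 CPM in knockdown-labelled libraries and at most 131 CPM elsewhere (log2 fold change 0.79, edgeR adjusted p = 0.0201). RPS26, NDUFB5 and SDHD rose by 1.03, 0.96 and 0.93, with library 3 inside the range of the control libraries. The share of counts on ribosomal protein genes was 12% in knockdown-labelled library 1, 11.5% in library 2, 6.68% in library 3 and 6.97% to 8.39% in the other groups, and its part in these results was not tested.

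Of 46 tested genes of G2 and mitosis, 13 rose and none fell, and 11 (23.9% against 7.36% of all genes) lay above all 6 others. These 11 were CCNA2, CCNB1, CDK1, CDC25C, MAD2L1, KIF20A, TOP2A, PTTG1, NEK2, NUF2 and SPC25. The list's median log2 fold change was 0.29, and without knockdown-labelled library 3, 22 members passed as higher and 4 as lower. Its median against the mean of control and rescue was 0.18, 0.26 and 0.36 in knockdown-labelled libraries, 0.12, 0.17 and 0.086 in control and -0.084, -0.11 and -0.21 in rescue libraries. Knockdown-labelled library 1 was thus close to control library 2, and the rescue libraries were the lowest. CCNB1, the cyclin that activates CDK1 at entry into mitosis, was at 145, 147 and 130.1 CPM in control, 225, 201 and 168 CPM in knockdown-labelled and 113, 107 and 112 CPM in rescue libraries (log2 fold change 0.66, SE 0.108, edgeR adjusted p = 0.0124). CDK1, its kinase, was at 80.2, 83.2 and 87.3 CPM in control, 167, 177 and 89.9 CPM in knockdown-labelled and 70.1, 68.2 and 67.2 CPM in rescue libraries (log2 fold change 0.93, SE 0.174, edgeR adjusted p = 0.0156). In CCNB1 the groups were well separated, while library 3 exceeded the highest control library only narrowly in CDK1.

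Further mitotic members covered the spindle and its checkpoint. NEK2, a kinase of centrosome separation, was at 29.1, 31.3 and 29.8 CPM in control, 40.8, 44.1 and 42.7 CPM in knockdown-labelled and 27.4, 26.8 and 27.9 CPM in rescue libraries (log2 fold change 0.57, SE 0.0924, edgeR adjusted p = 0.0124). KIF20A, a kinesin of cytokinesis, was at 57.9, 52.5 and 49.3 CPM in control, 74.4, 72.4 and 72.7 CPM in knockdown-labelled and 47.0, 35.7 and 36.1 CPM in rescue libraries (log2 fold change 0.67, SE 0.111, edgeR adjusted p = 0.0125). The 3 knockdown-labelled libraries lay close together in both genes. PTTG1, the securin that holds back chromosome separation, rose by 0.83, and the checkpoint gene MAD2L1 by 0.52. SPC25 and NUF2, of the kinetochore complex that binds microtubules, rose by 0.63 and 0.45. CDC25C, the phosphatase that activates CDK1, rose by 0.59 and CCNA2 by 0.47. TOP2A, which untangles chromosomes, had a log2 fold change of 0.32 and did not pass (edgeR adjusted p = 0.0694). After the GC and length correction 3 of the list passed and its median was 0.14, and without scaling 3 passed with a median of 0.037.

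The promoter of NEK2 is shown because NEK2 is among the mitotic members that rose and promoters of such genes are known for CCAAT boxes bound by NF-Y. It spans chr1:211675622-211675871 (RefSeq, GRCh38.p14, minus strand, the 250 bases before the start). Capitals mark CCAAT and the GC box GGGCGG, searched on both strands. CCAAT began 66 and 34 bases before the start, both on the strand of the gene.

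NEK2: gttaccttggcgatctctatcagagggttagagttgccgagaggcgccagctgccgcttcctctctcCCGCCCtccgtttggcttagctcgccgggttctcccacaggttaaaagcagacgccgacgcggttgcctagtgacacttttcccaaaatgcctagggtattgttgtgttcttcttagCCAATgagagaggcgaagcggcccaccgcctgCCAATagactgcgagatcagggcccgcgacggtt

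CCAAT on either strand was in 6 of the 7 mitotic members that rose and have 1 listed start. The share was 37.1% of 653 promoters of members above, 34.2% of 497 of members below, 36.6% of 7868 of all tested genes and 33.4% of all 22114 promoters with 1 start. The motif TTTGAA, the cell cycle homology region, was in 1 of the 7 and in 9.19%, 3.82%, 8.02% and 14% of the same 4 sets. A match is a run of letters and no evidence of binding.

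For DNA replication and S phase, 50 genes were tested, of which 4 rose and 1 fell. Above all other libraries lay 6 (12% against 7.36% of all genes), and below them 3 (6% against 6.44%). PCNA, the sliding clamp of DNA polymerases, was at 148, 145 and 152 CPM in control, 187, 187 and 175 CPM in knockdown-labelled and 106, 102 and 102 CPM in rescue libraries (log2 fold change 0.56, SE 0.086, edgeR adjusted p = 0.0113). ORC6, of the origin recognition complex, was at 61.1, 56.9 and 56.4 CPM in control, 71.9, 75.8 and 65.2 CPM in knockdown-labelled and 40.1, 35.7 and 35.2 CPM in rescue libraries (log2 fold change 0.61, SE 0.0946, edgeR adjusted p = 0.0113). CCNE2, a cyclin of the G1/S transition, rose by 0.62 (edgeR adjusted p = 0.0124). In PCNA and ORC6 the rescue libraries were all below the control libraries, with log2 differences of -0.52 and -0.65 between rescue and control (edgeR adjusted p = 0.0759 and 0.0592). The median of the list was 0.046, and it turned to -0.16 without scaling. Of 28 tested histone genes 1, H2AC6, rose and none was a member.

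Lists of protein folding and turnover followed. Of 35 proteasome subunits 8 rose and none fell, with a median log2 fold change of 0.31. Above all 6 others lay 9 (25.7% against 7.36% of all genes). PSMA4, of the catalytic core's outer ring, was at 117, 128 and 115 CPM in control, 183, 200.2 and 145 CPM in knockdown-labelled and 96.1, 105 and 104 CPM in rescue libraries (log2 fold change 0.67, SE 0.113, edgeR adjusted p = 0.0126). PSMA3, of the same ring, and PSMD12, of the regulatory lid, rose by 0.68 and 0.57. Knockdown-labelled library 3 was the lowest of its group in PSMA4, yet above every other library, whereas the list's median against the mean of control and rescue was 0.41, 0.46 and -0.082 in libraries 1, 2 and 3. Without scaling the list's median was 0.057 with 3 passed, and after the GC and length correction 2 passed.

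Among 15 tested genes of MHC class I presentation, PSME1 alone passed. PSME1, a proteasome activator, was at 91.6, 91.9 and 92.1 CPM in control, 157, 161 and 106 CPM in knockdown-labelled and 80.9, 65.9 and 76.9 CPM in rescue libraries (log2 fold change 0.77, SE 0.134, edgeR adjusted p = 0.0128). PDIA3, a chaperone of MHC class I loading, also lay above all others without passing (edgeR adjusted p = 0.0855). Of 26 heat shock chaperones 3 rose, HSPA4 and the chaperonin subunits TCP1 and CCT5, by 0.45, 0.48 and 0.38. Above all others lay 4 (15.4% against 7.36% of all genes). The medians of this list were 0.48, 0.54 and -0.12 in knockdown-labelled libraries 1, 2 and 3. Its median log2 fold change was 0.32. Without scaling it was 0.027, with none passed, 1 above and 1 below. After the GC and length correction 2 chaperones passed and 5 lay above. No gene of the ER stress list passed. Above lay 2 of 32 (6.25% against 7.36% of all genes), PDIA6 and HSP90B1, with log2 fold changes of 0.29 and 0.27.

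Of 36 tested lysosomal genes 4 rose and none fell, with 7 above (19.4%) and 2 below (5.56%), against 7.36% and 6.44% of all genes. ATP6V1E1, of the proton pump that acidifies lysosomes, was at 52.2, 54.4 and 47.5 CPM in control, 85.5, 85.6 and 60.1 CPM in knockdown-labelled and 47.4, 48.6 and 51.0 CPM in rescue libraries (log2 fold change 0.62, SE 0.122, edgeR adjusted p = 0.0178). ATP6AP2, an accessory protein of the pump, rose by 0.58. As members, both genes were above the other groups in every knockdown-labelled library. The margin was small in ATP6AP2, where library 3 was at 47.8 CPM and the highest rescue library at 47.5 CPM. By library the list's median was 0.26, 0.20 and -0.045 in knockdown-labelled libraries 1, 2 and 3. Its log2 fold change had a median of 0.23, which turned to -0.0068 without scaling, and 5 genes passed after the GC and length correction.

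In the pathway of UGT2B28 itself, 22 glucuronidation and steroid enzyme genes were tested, of which 2 rose. Above all 6 others lay 3 (13.6% against 7.36% of all genes). UGT2B28 alone passed as lower, and that difference rested on the rescue group, since its mRNA was not lower than in control. RDH11, a retinol dehydrogenase, was at 135, 127 and 129.8 CPM in control, 178, 183 and 177 CPM in knockdown-labelled and 133, 129 and 130.0 CPM in rescue libraries (log2 fold change 0.46, SE 0.0851, edgeR adjusted p = 0.0156). UGP2, which makes UDP-glucose, the precursor of the glucuronic acid donor, was at 43.3, 39.4 and 46.5 CPM in control, 66.6, 72.6 and 53.6 CPM in knockdown-labelled and 42.2, 43.4 and 42.3 CPM in rescue libraries (log2 fold change 0.59, SE 0.111, edgeR adjusted p = 0.0163). Control and rescue overlapped in both genes, and RDH11 had the narrower spread among the knockdown-labelled libraries. The median for these enzymes was 0.23 and turned to -0.015 without scaling.

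Androgen-induced genes moved in both directions. Of 58 tested, 4 rose and 3 fell, with 6 above (10.3%) and 2 below (3.45%), against 7.36% and 6.44% of all genes. Their median log2 fold change was 0.026 and turned to -0.21 without scaling. PLPP1, a lipid phosphatase, was at 37.8, 43.7 and 36.2 CPM in control, 59.8, 65.4 and 49.2 CPM in knockdown-labelled and 32.9, 31.4 and 35.8 CPM in rescue libraries (log2 fold change 0.68, SE 0.116, edgeR adjusted p = 0.0126). RAB3B, a small GTPase of regulated secretion, was at 32.3, 30.3 and 31.5 CPM in control, 15.9, 22.2 and 27.4 CPM in knockdown-labelled and 46.9, 52.0 and 42.4 CPM in rescue libraries (log2 fold change -0.81, SE 0.16, edgeR adjusted p = 0.0177). The rescue libraries of RAB3B were above all control libraries. VAPA, a membrane tether of the ER, rose by 0.60 (edgeR adjusted p = 0.0225). Of 19 androgen-repressed genes none was a member. UGT2B28 passed as lower through its high rescue libraries only, and CAMK2N1 rose (log2 fold change 0.81, edgeR adjusted p = 0.0235). The rescue libraries of CAMK2N1, at 7.35 to 8.94 CPM, lay below its control libraries at 15.0 to 17.9 CPM.

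Among the members below, EGLN1 encodes the oxygen-sensing hydroxylase that marks hypoxia-inducible factor for destruction. It was at 21.7, 20.8 and 23.1 CPM in control, 7.27, 11.4 and 14.3 CPM in knockdown-labelled and 29.9, 32.4 and 25.7 CPM in rescue libraries (log2 fold change -1.20, SE 0.192, edgeR adjusted p = 0.0121). The 3 groups did not overlap, with rescue above control. It also passed after the GC and length correction (edgeR adjusted p = 0.0113). Of 38 tested hypoxia and glycolysis genes 4 fell and none rose, with a median log2 fold change of -0.073. Below all others lay 3 (7.89% against 6.44% of all genes). The list's median against the mean of control and rescue was 0.14, 0.16 and -0.61 in knockdown-labelled libraries 1, 2 and 3. Without library 3, 13 members passed as higher and 7 as lower. PFKL, the liver form of phosphofructokinase, was at 222, 230.5 and 192 CPM in knockdown-labelled libraries and at 272 to 349 CPM in the others (log2 fold change -0.51, edgeR adjusted p = 0.0294; 0.526 after the correction). PFKFB3, which makes the activator of that enzyme, fell by 0.85 without being a member, since knockdown-labelled library 2, at 97.0 CPM, lay inside the control range of 93.6 to 139 CPM.

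Of 36 cholesterol and fatty acid synthesis genes 2 fell and none rose. Below all 6 others lay 5 (13.9% against 6.44% of all genes), and above them 2 (5.56% against 7.36%). LSS, which closes the sterol ring system, was at 181, 167 and 158 CPM in control, 117, 124 and 116 CPM in knockdown-labelled and 189.7, 181 and 178 CPM in rescue libraries (log2 fold change -0.56, SE 0.095, edgeR adjusted p = 0.0126). CYP51A1, the next enzyme of the pathway, was at 6.75, 4.69 and 4.0 CPM in control, 2.29, 3.18 and 3.05 CPM in knockdown-labelled and 8.90, 9.27 and 6.56 CPM in rescue libraries (log2 fold change -1.18, SE 0.26, edgeR adjusted p = 0.0235). SREBF2, the transcription factor that drives the pathway, was a member at 201, 192 and 181 CPM against 222 to 295 CPM elsewhere and just missed the threshold (log2 fold change -0.36, edgeR adjusted p = 0.0538). The knockdown-labelled libraries of LSS lay close together, far from both other groups. The list's median log2 fold change was 0.0062, and -0.25 without scaling. After the GC and length correction 2 of the list lay below and 1 above, against 713 and 865 of all 16796 genes. The list's median was then 0.019, and CYP51A1 alone passed. SREBF2 was then no longer a member (log2 fold change -0.12, edgeR adjusted p = 0.464).

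Of 21 tested NF-kB pathway and target genes 4 fell and none rose, the same 4 being members (19.0% against 6.44% of all genes). The list's median log2 fold change was 0.0016 (-0.28 without scaling). Against the mean of control and rescue its median was 0.185, 0.004 and -0.489 in knockdown-labelled libraries 1, 2 and 3. Without library 3, 6 members passed as higher and 5 as lower. MAP3K14, the kinase that starts the non-canonical branch, was at 34.0, 41.3 and 36.9 CPM in control, 32.6, 31.9 and 31.9 CPM in knockdown-labelled and 85.9, 74.6 and 91.6 CPM in rescue libraries (log2 fold change -0.80, SE 0.109, edgeR adjusted p = 0.0113). The knockdown-labelled libraries lay just under the control libraries, and the rescue libraries were far above both, with a log2 difference of 1.17 between rescue and control (edgeR adjusted p = 0.0068). TRAF3, the adaptor that keeps MAP3K14 low, was at 58.9, 53.5 and 45.7 CPM in control, 33.2, 33.2 and 40.6 CPM in knockdown-labelled and 47.1, 45.4 and 46.2 CPM in rescue libraries (log2 fold change -0.47, SE 0.116, edgeR adjusted p = 0.0342). TNFAIP2, a TNF-inducible target gene, was at 39.9, 39.0 and 51.1 CPM in control, 24.2, 22.2 and 24.3 CPM in knockdown-labelled and 26.4, 40.2 and 38.1 CPM in rescue libraries (log2 fold change -0.72, SE 0.157, edgeR adjusted p = 0.023). In these 2 genes control and rescue overlapped. IKBKG, the regulatory subunit of the IkB kinase, was the fourth, and it has a near-identical copy. After the GC and length correction MAP3K14 alone passed.

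The promoters of TNFAIP2 and TRAF3 are shown because members below differed from members above in base composition, and both are rich in G and C, at 77.2% and 86.4%. They span chr14:103123211-103123460 and chr14:102777199-102777448 (RefSeq, GRCh38.p14, plus strand, the 250 bases before the start). Capitals mark the GC box GGGCGG on either strand, where overlapping matches run together.

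TNFAIP2: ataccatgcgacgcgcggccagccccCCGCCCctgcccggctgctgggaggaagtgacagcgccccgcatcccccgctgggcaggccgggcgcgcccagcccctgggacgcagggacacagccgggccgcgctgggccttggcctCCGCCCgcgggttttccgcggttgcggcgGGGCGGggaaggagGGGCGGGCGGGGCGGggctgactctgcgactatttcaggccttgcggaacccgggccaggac
TRAF3: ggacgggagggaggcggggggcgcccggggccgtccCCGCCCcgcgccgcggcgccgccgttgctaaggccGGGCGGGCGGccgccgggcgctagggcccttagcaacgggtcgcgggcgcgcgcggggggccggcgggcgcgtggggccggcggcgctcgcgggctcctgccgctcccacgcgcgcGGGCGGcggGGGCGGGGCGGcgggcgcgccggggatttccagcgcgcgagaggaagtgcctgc

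Each of these 2 promoters held 6 matches of GGGCGG. The share of promoters with at least 1 match was 65.5% of members above, 77.1% of members below, 67.8% of all tested genes and 40.9% of all promoters. The median GC content of the promoters was 63.6% for members above, 69.6% for members below and 65.2% for all tested genes. No factor was measured at any of these sites.

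Adhesion and signalling genes contributed smaller numbers. Of 24 tested integrins and their activators 2 fell, with 3 below (12.5% against 6.44% of all genes) and 1 above (4.17% against 7.36%). Their median log2 fold change was -0.25. ITGB5, an integrin beta chain, was at 108, 98.3 and 84.5 CPM in control, 71.6, 66.4 and 75.4 CPM in knockdown-labelled and 112, 90.9 and 104 CPM in rescue libraries (log2 fold change -0.48, SE 0.114, edgeR adjusted p = 0.029). ITGA3, an alpha chain for laminin binding, was at 1.15 to 1.61 CPM in knockdown-labelled libraries and at 2.25 to 4.54 CPM elsewhere (log2 fold change -1.24, edgeR adjusted p = 0.0448). Both are members, so the lack of overlap with the other libraries is set by the rule. Neither gene passed after the GC and length correction. The focal adhesion adaptor PXN lay below all others without passing (log2 fold change -0.32, edgeR adjusted p = 0.0546).

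Of 36 immediate early and ERK output genes 3 fell and none rose, with 2 members below (5.56% against 6.44% of all genes). SRF, the serum response factor, was at 63.3, 62.6 and 40.4 CPM in knockdown-labelled libraries and at 73.0 to 112 CPM in the others (log2 fold change -0.65, edgeR adjusted p = 0.0274). KLF4, a Krüppel-like transcription factor, was at 47.2 to 55.3 CPM in knockdown-labelled and at 62.1 to 139 CPM in the other libraries (log2 fold change -0.74, edgeR adjusted p = 0.0322). EGR1, an immediate early transcription factor, fell too (log2 fold change -3.35, edgeR adjusted p = 0.0392) without being a member. Its rescue libraries were at 23.9, 98.7 and 23.6 CPM and its control libraries at 0.612 to 0.815 CPM, so that fold change rested on the rescue group. Of 35 genes of the EGFR family and endocytosis 2 rose, ADAM17, which sheds EGFR ligands, by 0.50 and RAB11A, a recycling GTPase, by 0.51. In the same list 3 fell, among them EPN2, an endocytic adaptor, by 0.38. Its members were 2 above (5.71%) and 3 below (8.57%), against 7.36% and 6.44% of all genes.

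Of 22 interferon-stimulated genes, MX1 alone passed, with 2 members above and 2 below (9.09% each, against 7.36% and 6.44% of all genes). MX1, an antiviral GTPase, was at 40.6, 41.3 and 56.5 CPM in control, 27.1, 29.6 and 37.9 CPM in knockdown-labelled and 59.1, 69.4 and 74.3 CPM in rescue libraries (log2 fold change -0.83, SE 0.155, edgeR adjusted p = 0.0157). The 3 groups did not overlap, and rescue was highest. STAT2, a transcription factor of the interferon response, lay below all others at 42.9 to 49.4 CPM without passing (edgeR adjusted p = 0.0677). IFITM3 lay above all others at 1.41 to 1.59 CPM, also without passing (edgeR adjusted p = 0.214).

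In the 2 largest gene families listed, members lay on both sides. Of 449 tested zinc finger genes named ZNF 5 rose and 6 fell, with 27 above (6.01%) and 10 below (2.23%), both under the shares of all genes. ZNF512B was at 109, 117 and 103 CPM in control, 64.9, 71.1 and 69.6 CPM in knockdown-labelled and 119.8, 116 and 123 CPM in rescue libraries (log2 fold change -0.74, SE 0.0936, edgeR adjusted p = 0.0113). ZNF282, a transcriptional repressor, was at 44.6 to 46.3 CPM in knockdown-labelled and at 62.1 to 65.4 CPM in all other libraries (log2 fold change -0.48, edgeR adjusted p = 0.014). These were among the most evenly separated falls with TMM scaling. After the GC and length correction ZNF512B still passed (edgeR adjusted p = 0.0392), while ZNF282 did not (0.18) and was no longer a member. ZNF32 rose by 0.95, with library 3 at 27.7 CPM just above the highest control library at 26.8 CPM. Of 238 tested solute carriers 9 rose and 9 fell, with 19 above (7.98%) and 17 below (7.14%). SLC16A8, a lactate transporter, was at 19.8, 14 and 17.5 CPM in control, 6.73, 8.21 and 11.1 CPM in knockdown-labelled and 27.0, 23.9 and 21.5 CPM in rescue libraries (log2 fold change -1.22, SE 0.19, edgeR adjusted p = 0.0113). SLC9A3, a sodium-proton exchanger, fell by 0.64. After the GC and length correction, 10 solute carriers lay below and 14 above.

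Other lists are given beside shares of 7.36% above and 6.44% below over all genes. Of 35 MYC and ribosome biogenesis genes 3 rose and 1 fell, with 2 above (5.71%) and 4 below (11.4%). After the GC and length correction 2 of them lay above and 1 below. The nucleolar protein gene NPM1 rose by 0.54, and RRP12, a ribosome export factor, fell by 0.36. Of 40 mesenchymal and matrix genes 1 rose and 4 fell, with 3 above (7.5%) and 2 below (5%). TAGLN, an actin-binding protein, fell by 0.54 as a member, with a log2 difference of -0.25 against control alone (edgeR adjusted p = 0.342). AKAP12 and MMP10 passed as lower without being members (log2 fold changes -1.74 and -1.80), with knockdown-labelled and control ranges overlapping and rescue libraries higher. Against control alone MMP10 did not fall (log2 difference 0.11, edgeR adjusted p = 0.906), so its fold change rested on the rescue group. Of 41 epithelial junction genes 2 rose, ELF5 among them, with 2 above and 2 below (4.88% each). Of 24 p53 targets 1, the cyclin gene CCNG1, rose, and 2 (8.33%) lay above. Of 20 NRF2 antioxidant genes 2 rose, TXN and NQO1, while 1 (5%), KEAP1, lay below all others. Of 23 small nucleolar RNA host genes SNHG16 rose and SNHG22 (4.35%) lay below all others.

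No member was found in the lists of luminal prostate markers (11 tested), basal keratins and TP63 (8), neuroendocrine genes (6), fibroblast markers (5), endothelial markers (2) and leukocyte markers (1), and none of them passed. The summed level of the 7 fibroblast markers was 20.3 to 70.0 CPM in control, 42.5 to 49.4 CPM in knockdown-labelled and 49.3 to 129 CPM in rescue libraries. Endothelial markers summed to 2.55 to 7.69, 3.90 to 4.68 and 2.83 to 5.77 CPM, and leukocyte markers, 2 of which were at 0 in all libraries, to 5.41 to 8.38, 3.26 to 10.5 and 5.25 to 6.46 CPM. The ranges of the 3 groups overlapped in each of these sums.

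**Figure D3:**
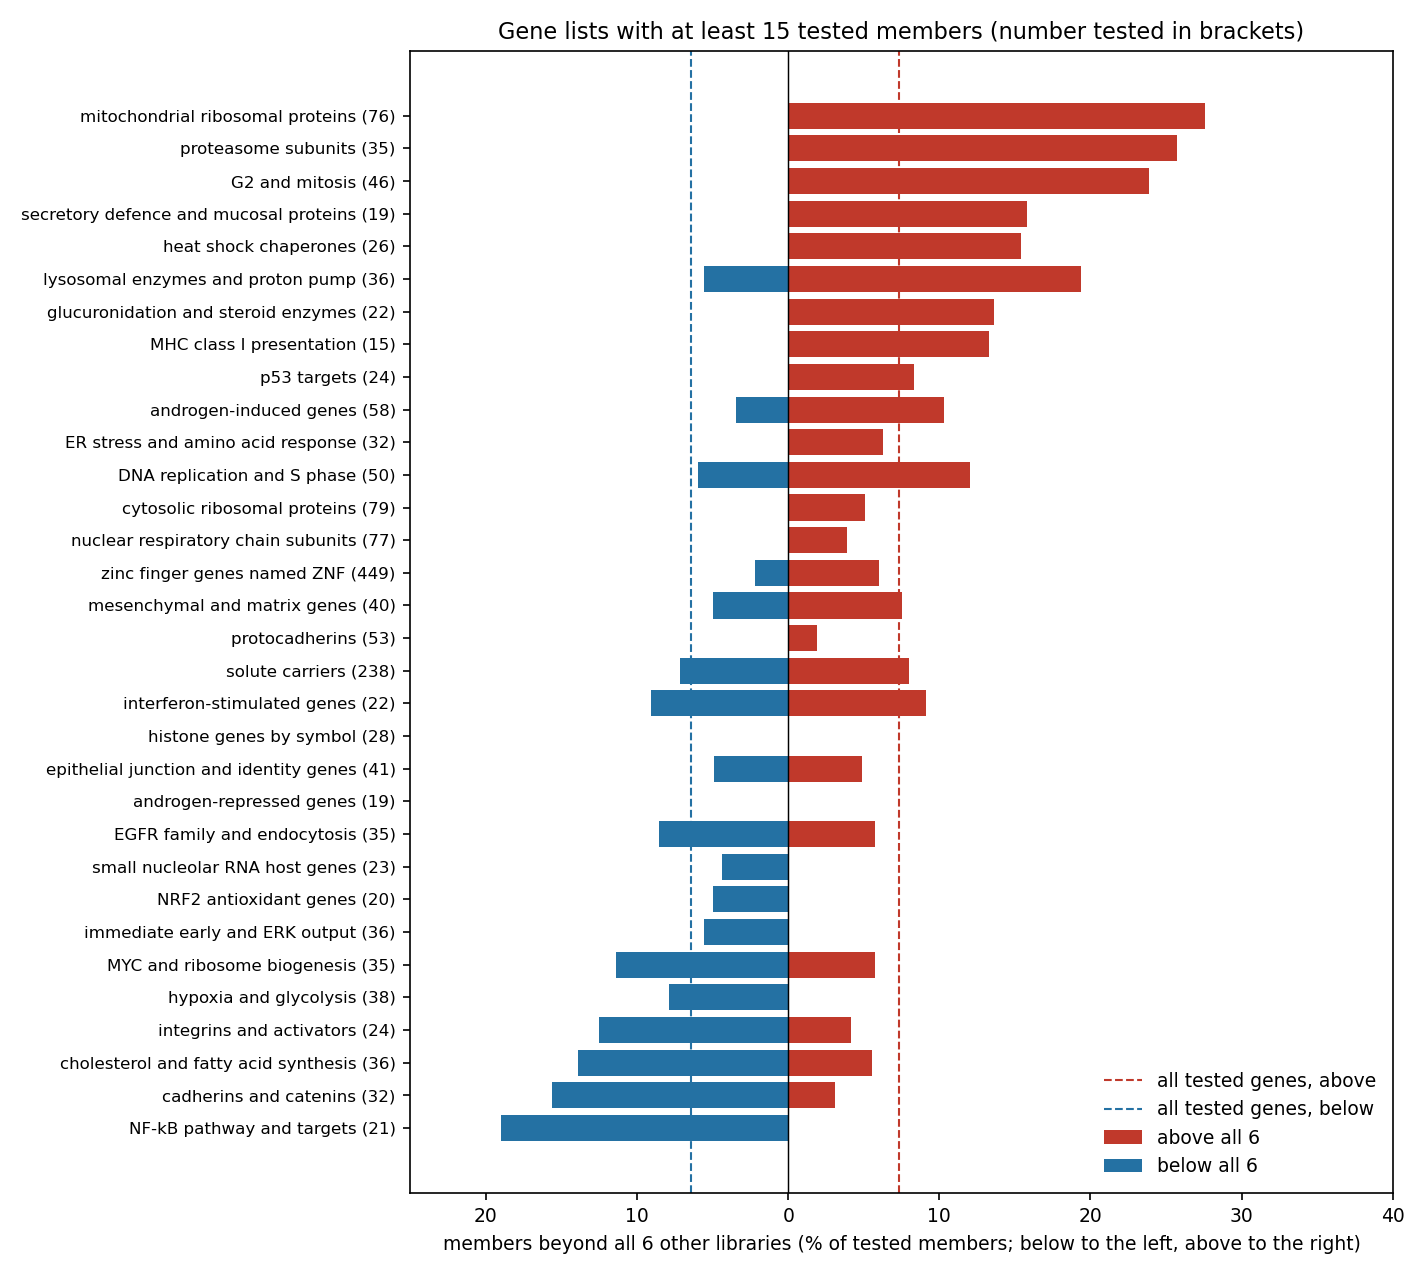
Share of tested members of each gene list (with at least 15 tested members) that lay above (red, to the right) or below (blue, to the left) all 6 other libraries, in percent on a linear axis, with dashed lines for all tested genes at 7.36% and 6.44%. All shares are from TMM-scaled CPM. Mitochondrially encoded mRNAs are not drawn because 13 were tested. Mitochondrial ribosomal proteins at 27.6% and proteasome subunits at 25.7% reached furthest to the right and NF-kB genes at 19.0% furthest to the left.

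How far the members stood at control level in the rescue libraries was read from the contrast of rescue against control, whose sign the rule does not set. Control and rescue ranges overlapped in 876 of the 1237 members above (70.8%), in 777 of the 1081 members below (71.9%) and in 12356 of all 16796 tested genes (73.6%). In this contrast 25 genes passed (0.149%), 24 of them higher in rescue libraries. None of the members above and 3 of the members below were among them, all 3 higher in rescue libraries: MAP3K14, CLMN, a calponin-domain protein gene (log2 difference 0.65, edgeR adjusted p = 0.0380), and CUEDC1 (0.89, edgeR adjusted p = 0.0381). CLMN and CUEDC1 were named after their values were seen.

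Where control and rescue did not overlap, the rescue libraries mostly lay on the far side of control from the knockdown-labelled ones. Of the members above, 321 had all rescue libraries below all control libraries and 40 had them above. Of the members below, 257 had rescue above control and 47 below. Over all tested genes the shares were 12.8% with rescue above and 13.6% with rescue below. The median log2 difference between rescue and control was -0.093 for members above, 0.092 for members below and -0.0066 for all genes. The rescue mean was lower than the control mean in 72.8% of members above, 31.4% of members below and 51.0% of all genes.

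The knockdown-labelled libraries were therefore further from rescue than from control. The median log2 difference of members above was 0.43 against control and 0.54 against rescue, and of members below -0.48 and -0.59. These 2 contrasts share the knockdown-labelled libraries and are given side by side only. Against control alone 1 gene passed of 16796 (0.00595%), and it was a member above. Against rescue alone 1651 genes passed (9.83%), among them 614 members above and 493 members below.

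**Figure D4:**
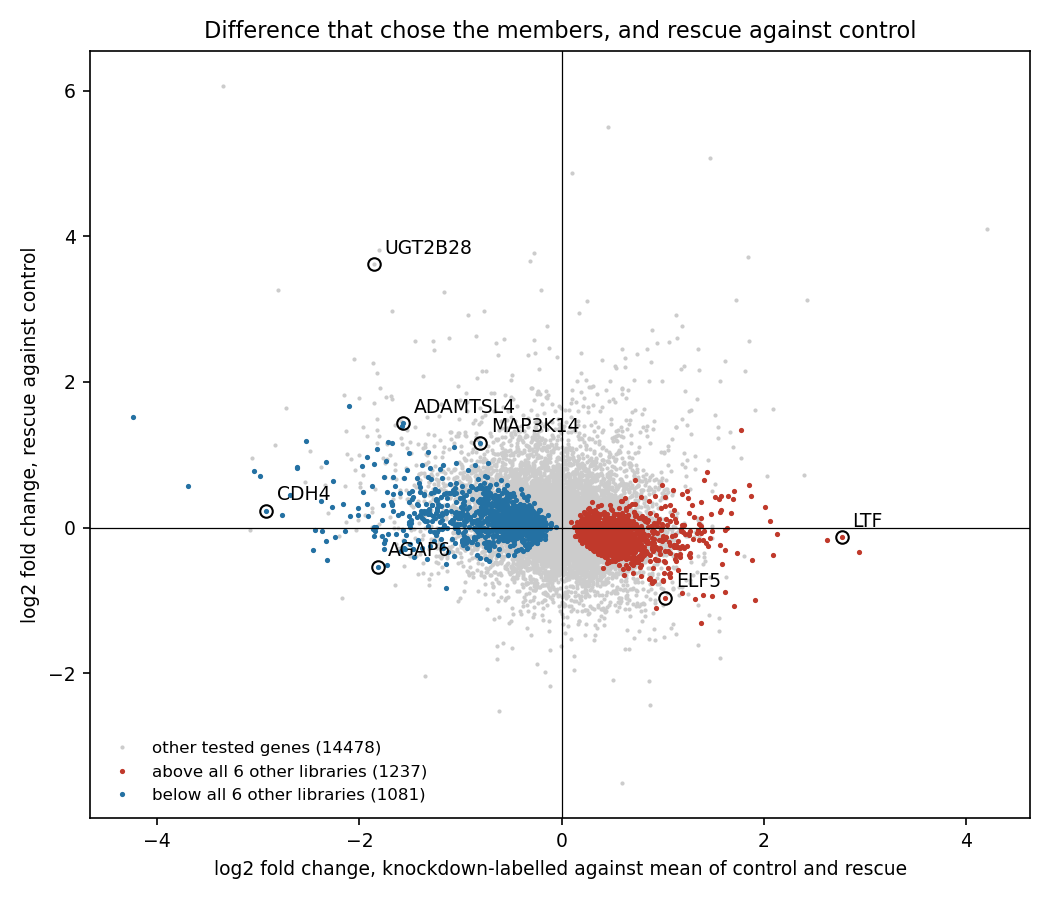
Log2 fold change of each tested gene between knockdown-labelled libraries and the mean of control and rescue (horizontal axis) and between rescue and control (vertical axis), with members above in red, members below in blue and other genes in grey. LTF at 2.77 and CDH4 at -2.92 lie near 0 on the vertical axis (-0.13 and 0.23), and MAP3K14 lies at 1.17.

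Members above and below differed in base composition, which the rule did not use. The median GC content of the exons was 41.5% in protein-coding members above (quartiles 38.4% and 45.3%), 58.4% in members below (53.4% and 61.7%) and 48.4% in all tested protein-coding genes. In the tertile of genes with the lowest GC content 17.1% lay above and 0.771% below, and in the highest tertile 1.25% and 14%. By deciles, the share above went from 21.4% at the lowest GC content to 0.241% at the highest, and the share below from 0.161% to 15.7%. Median exon length was 4392.5 bases in members above, 6424 in members below and 5115 in all. In the tertile with the shortest exons 10.8% lay above and 3.18% below, and in the longest tertile 5.54% and 9.13%.

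The libraries themselves differed in this respect. The median log2 difference between genes of low and high GC content was 0.052, 0.161 and 0.659 in knockdown-labelled libraries 1, 2 and 3, -0.003 to 0.056 in control and -0.125 to 0.111 in rescue libraries. Correcting each library with a loess curve on GC content and length, which was chosen after seeing the data and covers the 96.4% of tested genes with both values, left 1578 members, 865 above and 713 below. Of the original members 491 above and 467 below were among them, and 618 were not members before. The shares by deciles of GC content were then 3.69% to 7.55% above and 3.13% to 4.66% below. The corrected fit passed 608 genes, 413 higher and 195 lower, of which 435 had passed without it. LTF (adjusted p = 0.00867 in the corrected edgeR fit), CDH4, MIF, AGAP6, PDF, ZGPAT, EGLN1, PCNA, ORC6, CCNB1, KIF20A, MX1 and ZNF512B passed both fits. NEK2, LSS, SLC16A8, TRAF3 and TNFAIP2 did not pass after the correction. The part of the libraries' GC difference in the members' GC content was not tested beyond this correction.

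**Figure D5:**
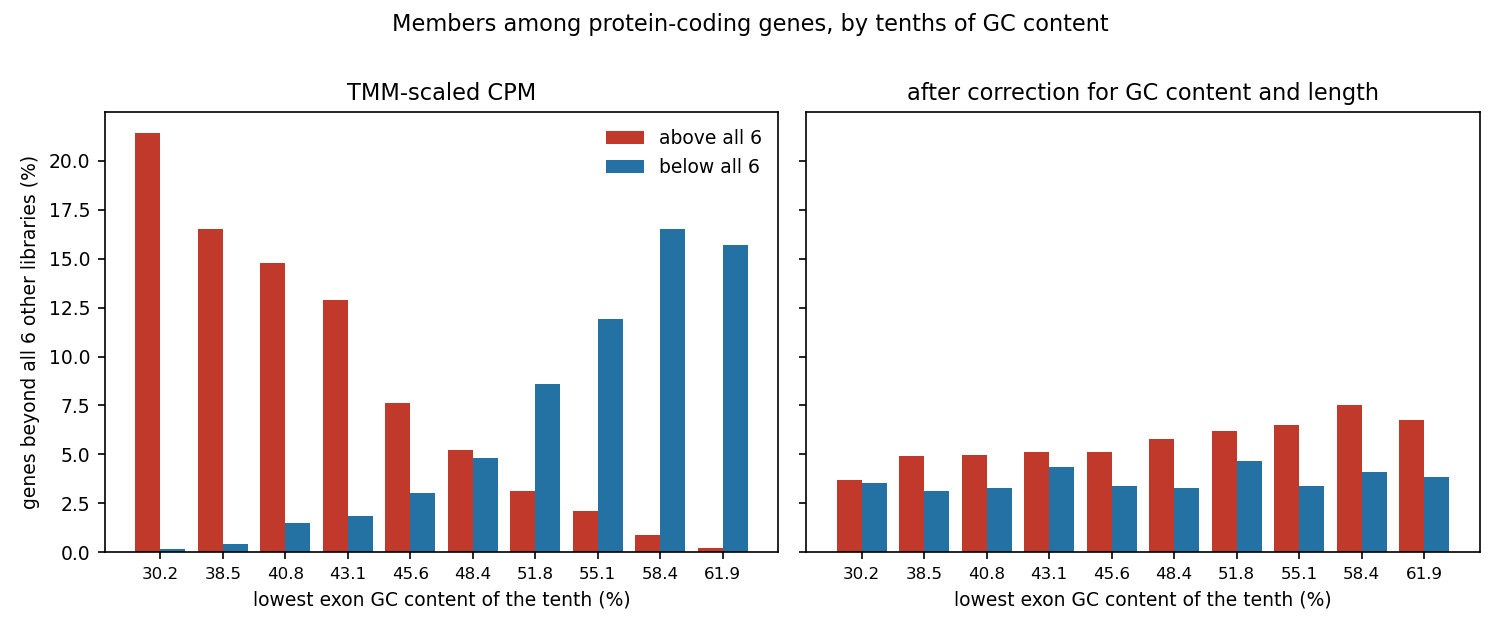
Percentage of tested protein-coding genes that lay above (red) or below (blue) all 6 other libraries in deciles of exon GC content, with TMM-scaled CPM on the left and after the loess correction on the right; the axis labels give the lowest GC content of each decile. Uncorrected shares above went from 21.4% to 0.241%, and corrected shares above stayed between 3.69% and 7.55%.

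By type, 87.1% of annotated members above were protein-coding, 6.52% long noncoding and 4.79% processed pseudogenes, against 77.0%, 16.8% and 2.49% of all tested genes. For members below the shares were 76.5%, 16.5% and 1.62%. By chromosome, 11 of 22 tested genes of the mitochondrial genome (50%) lay above. Chromosome 4 had 12.4% above and 3.14% below, X 11.5% and 3.18% and chromosome 13 9.20% and 1.92%. Chromosome 22 had 3.33% above and 12.9% below, chromosome 17 4.32% and 10.9% and chromosome 19 2.62% and 8.11%. These shares were counted without the GC and length correction, and the part of GC content in them was not tested.

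Members above had a median log2 fold change of 0.49 and ran from 0.092 to 2.94, with 117 of them at least 2-fold higher. Members below had a median of -0.54, and 211 were at least 2-fold lower. Over all tested genes the median size of the log2 fold change was 0.27, and 839 differed at least 2-fold. Median levels were 41.2 CPM for members above, 33.4 CPM for members below and 18.9 CPM for all. Just inside the rule, MED29 was at 68.0 CPM in both its lowest knockdown-labelled and its highest other library, and just outside, TMEM179B was at 62.6 CPM in both. On the other side SGSM2, at 119 CPM in its highest knockdown-labelled and its lowest other library, was the last inside, and ARID3B, at 15.1 CPM in both, the first outside. A further 295 genes passed without being members, 239 higher and 56 lower.

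Membership also depended on the scaling. Without scaling 2418 genes lay beyond all others, 431 above and 1987 below, of which 357 members above and 884 members below were common with TMM. Over all genes the median log2 fold change was 0.0068 with TMM and -0.23 without scaling. Members that passed and lay beyond all 6 others with TMM, without scaling and after the GC and length correction numbered 170 above and 251 below. Of these, 75 above and 123 below also passed in the other 2 fits. LTF, MIF, MT-ND1, MT-CO1, CCNB1, PLPP1, PSME1 and ATP6V1E1 lay above, and CDH4, AGAP6, PDF, ZGPAT, EGLN1, LSS, CYP51A1, RAB3B, MX1 and ZNF512B lay below under all 3 scalings.

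The calls that held in the fit with all libraries and in each of the 9 fits without 1 library were 3, and they were picked out after their values were seen. H3P16, a processed histone H3 pseudogene at chr4:139698144-139698554, was at 34.9, 37.1 and 36.6 CPM in control, 77.3, 75.7 and 73.6 CPM in knockdown-labelled and 30.4, 30.3 and 30.2 CPM in rescue libraries (log2 fold change 1.19, SE 0.0832, edgeR adjusted p = 0.000362). H3P6, a second one at chr2:174719908-174720318, was at 112, 116 and 98.0 CPM in control, 191, 221 and 199 CPM in knockdown-labelled and 80.4, 72.8 and 89.8 CPM in rescue libraries (log2 fold change 1.12, SE 0.105, edgeR adjusted p = 0.00375). MT-TY, the mitochondrial tyrosine tRNA gene, was at 91.3, 89.0 and 76.2 CPM in control, 182, 209 and 157 CPM in knockdown-labelled and 76.8, 56.3 and 68.0 CPM in rescue libraries (log2 fold change 1.27, SE 0.126, edgeR adjusted p = 0.00424). In these genes knockdown-labelled library 3 lay with libraries 1 and 2. Pseudogene counts may hold reads of near-identical copies of the histone gene. Of the 1502 genes, 801 passed in only 1 of the 9 fits and 255 in 7.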

How the data were processed

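Total RNA of 9 LAPC4 libraries was sequenced. Per the submitters' processing notes, the tools were FastQC, cutadapt, STAR and HTSeq, on hg38. Their versions, the annotation and the strand setting of the counting are not given in the sources. The deposited values are raw read counts per gene, which the authors did not normalize. Summary rows held 43.7% to 48.7% (no feature), 2.36% to 3.14% (ambiguous) and 7.67% to 11.6% (not unique) of all counts and stayed out of library sizes. In 328 genes at least 95% inside exons of an opposite-strand gene of at least 20 CPM, the median count density was 2.04 times that gene's, so antisense and overlapping genes are uncertain.

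Counts were fitted with edgeR 4.0.16 in R 4.3.3 (filterByExpr with a minimum count of 10, TMM, quasi-likelihood test, 6 residual degrees of freedom, all 9 libraries in 1 fit, knockdown-labelled minus the mean of control and rescue) and checked on simulated counts. The threshold was an adjusted p (Benjamini-Hochberg) of 0.05. Type, position, length and GC content came from GENCODE 29 on GRCh38, to which 55653 of 60325 rows matched 1 gene. Named genes were UGT2B28, LTF, CDH4, the protein-coding members that passed with the 12 strongest rises and 12 strongest falls (higher mean not under 2 CPM), up to 3 genes of the smallest p in each of 39 lists, and the genes nearest to the rule's limit. Other mitotic members, TOP2A among them, IKBKG, CLMN, CUEDC1, H3P16, H3P6 and MT-TY were named after their values were seen. Single values of a few genes that the rule names are not reported here. The members and lists were chosen with earlier results of these data known. Alternatives used DESeq2 1.42.0, limma 3.58.1, other scalings and filters, a replicate block, libraries left out, and a loess correction.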

Additional observations from a re-analysis of the deposited data

How the results depend on the processing

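With 3 libraries a group, these results rest on few libraries. Against 1502 genes passed in the main contrast, no filter on low counts gave 2318, the DESeq2 Wald test 2492, limma-voom with sample quality weights 7309, the loess correction for GC content and length (added after seeing the data) 608 and an adjusted p under 0.01 gave 3. With 1 library left out the number ranged from 4 to 6736, and it was 3022 without knockdown-labelled libraries 1 and 2. For rescue against control, 25 genes became 401, 326, 1590, 44 and 3 under the same 5 settings, 13 with limma-voom, 1 to 1276 with 1 library left out and 977 without knockdown-labelled libraries 1 and 2. The members numbered 2442 to 7480 with 1 library left out, and 9785 without knockdown-labelled libraries 1 and 2, since only 1 library then had to lie outside. The cause was not tested in the other cases.

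With the replicate number as a block, 271 genes passed in the main contrast and 4 for rescue against control. The 9 pairs of the same number had correlations of -0.355 to 0.078, and the 18 other pairs -0.162 to 0.269. These were taken on deviations from group means of 3 libraries, so they cannot settle whether the numbers pair the libraries. The cause of the lower counts with the block was not tested.

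Of 110 named genes, 95 passed, and each of the 95 lost the call without knockdown-labelled library 1 and without library 2; 65 lost it with the block, 53 with the loess correction and 38 without scaling. NME1 turned negative without knockdown-labelled libraries 1 and 2 (log2 fold change -0.077). Of 37 list medians, 18 moved by more than their spread without scaling, 5 with the loess correction and 28 without knockdown-labelled libraries 1 and 2. Other settings kept the counts within 1.5 times.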
